A study of Mus musculus with 6 samples.

Results

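The 10 genes described here encode receptors, kinases, transcription factors and feedback inhibitors of JAK-STAT3 signalling. They were taken by gene symbol (Il6st, Osmr, Lifr, Jak1, Jak2, Stat3, Stat5a, Stat5b, Socs2 and Socs3), and each symbol matched 1 of the 22706 genes in the table. Their RNA was measured by RNA-seq in freshly sorted muscle stem cells (MuSCs), from which skeletal muscle regenerates, in 6 libraries of 3 groups with 2 libraries each. The control group was wild type. Mdx mice carry a loss-of-function mutation of the dystrophin gene and model Duchenne muscular dystrophy. Sirt6mKO/mdx mice carry the same dystrophin mutation and a conditional deletion of Sirt6, a histone deacetylase, driven by a Pax7 Cre allele that is active in the muscle lineage, so that muscle fibres lose the gene together with MuSCs. The labels name the strain C57BL/6 for all libraries and give neither age nor sex, whereas the study names a C57BL/10 mdx stock in its methods and a C57BL/6 background in its reporting checklist. It describes the animals of these experiments as male. All libraries came from the same cell type, and the labels name no treatment.

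Cytokines of the interleukin-6 (IL-6) family bind receptors that contain gp130, the product of Il6st. Gp130 pairs with the oncostatin M receptor (Osmr) or the leukaemia inhibitory factor receptor (Lifr), and the bound Janus kinases JAK1 and JAK2 phosphorylate STAT3. Phosphorylated STAT3 enters the nucleus and activates genes that include Socs3, whose product binds gp130 and the kinases and shuts the signal off. STAT5A and STAT5B are related factors that act downstream of growth hormone and other cytokines and induce Socs2. In MuSCs this pathway is known to act on proliferation and on the onset of differentiation after injury. RNA levels do not report the phosphorylation of STAT3, and no protein was measured here.

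Socs3 and Stat3, the inhibitor and the factor with the largest differences below, are shown with the 250 bases before the start of their RefSeq transcripts (mouse build GRCm38.p6, both on the minus strand, written 5′ to 3′ along the transcript). The capitals mark TTCNNNGAA, the palindromic core of STAT sites, which a search of both strands found in the Socs3 window (chr11:117969367-117969616) and not in the Stat3 window (chr11:100939541-100939790).
Socs3: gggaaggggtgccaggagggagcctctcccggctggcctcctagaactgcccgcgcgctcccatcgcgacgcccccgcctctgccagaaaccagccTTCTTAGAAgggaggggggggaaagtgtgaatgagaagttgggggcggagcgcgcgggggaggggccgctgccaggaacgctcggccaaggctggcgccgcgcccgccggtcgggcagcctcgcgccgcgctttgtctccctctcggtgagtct
Stat3: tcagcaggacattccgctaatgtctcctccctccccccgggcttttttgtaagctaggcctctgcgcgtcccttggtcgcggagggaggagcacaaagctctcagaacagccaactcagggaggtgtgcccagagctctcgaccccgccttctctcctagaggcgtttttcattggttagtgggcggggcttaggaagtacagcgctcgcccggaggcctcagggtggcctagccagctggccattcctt
The match in Socs3 began 154 bases before the RefSeq start. That start lies 681 bases inside the end of the gene given in the table, so the window is upstream of the main transcript but within the longer annotated gene. RefSeq windows of 250 bases before and 50 bases after a start were at hand for 9 of the 10 members (12 windows). TTCNNNGAA was in 1 of these 12 and in 8.30% of all 32851 windows. The wider form, with 4 bases in place of 3 between TTC and GAA, was in 0 of the 12 and in 6.95% of all windows. TGANTCA, the AP-1 site, was found in the window of Osmr and in 7.81% of all windows, and TGACGTCA, the cAMP response element, in the window of Jak1 and in 1.79%. A match is a description of letters and not a measured binding site.

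Depth was about 4397499 to 9744261 reads per library, and each member rested on about 75 (Socs2) to 4128 (Stat3) reads in a library. Values are normalized read counts, which the authors obtained by dividing the reads of a gene by a size factor of its library. Sirt6 was at 41 and 32 in control, against 33 and 40 in mdx cells and 37 and 30 in Sirt6mKO/mdx. The deletion was thus not visible in this value, which is summed over the whole gene, and the group is named the libraries labelled as Sirt6mKO/mdx throughout. All 12 MuSC markers were above 0 in every library, with Pax7 at 2167 to 3236. Xist, which is made in female cells, was at 16772 and 12950 in control, against 7 and 8 in mdx cells and 33 and 34 in the libraries labelled as Sirt6mKO/mdx. The Y-linked gene Ddx3y was at 3 and 8, 1024 and 1055, and 1555 and 1767. The control libraries thus went against the description as male. Sex and genotype cannot be told apart in both comparisons with control. All 10 members lie on autosomes.

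In mdx MuSCs 5 of the 10 members were called lower than in control, and 4 of these were called higher in the libraries labelled as Sirt6mKO/mdx than in mdx. Stat3, Socs3 and Osmr fell to 0.150, 0.250 and 0.248 of their control level, and Stat5a and Socs2 fell as well, whereas Lifr, Il6st, Jak1, Jak2 and Stat5b were not called. In the libraries labelled as Sirt6mKO/mdx, Stat3, Socs3, Osmr and Stat5a were higher than in mdx by 5.49-, 6.48-, 3.20- and 3.56-fold, and these 4 genes were not called against control. A gene was called when its Benjamini-Hochberg adjusted p from limma, taken over all 15915 genes tested, was at most 0.05 and its log2 fold change was at least 1 in either direction. In mdx against control 5 of 10 members were called lower and 0 higher, while 7.34% of all tested genes were called lower and 6.89% higher. In the libraries labelled as Sirt6mKO/mdx against mdx 4 members were called higher and 0 lower, beside 5.62% and 2.54% of all tested genes. Against control, 1 member was called lower and 0 higher in the libraries labelled as Sirt6mKO/mdx, beside 2.68% and 5.19%. At an unadjusted p of limma under 0.05 there were 0 members higher and 8 lower, 4 higher and 1 lower (Lifr), and 1 higher (Socs3) and 4 lower, in the same order. Of all 15915 genes 4930, 4004 and 3828 had such a p. No overlap between the libraries of both groups was seen for 9, 6 and 7 members in these comparisons, and for 57.0%, 56.0% and 51.6% of all tested genes. The median log2 fold change of the members was -1.03, 0.14 and -0.38, and that of all tested genes was 0.00, 0.02 and 0.01. The comparisons share libraries: mdx stands in the first 2 and control in the first and the last, so a low value in mdx enters both the fall and the rise.

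**Figure D1:**
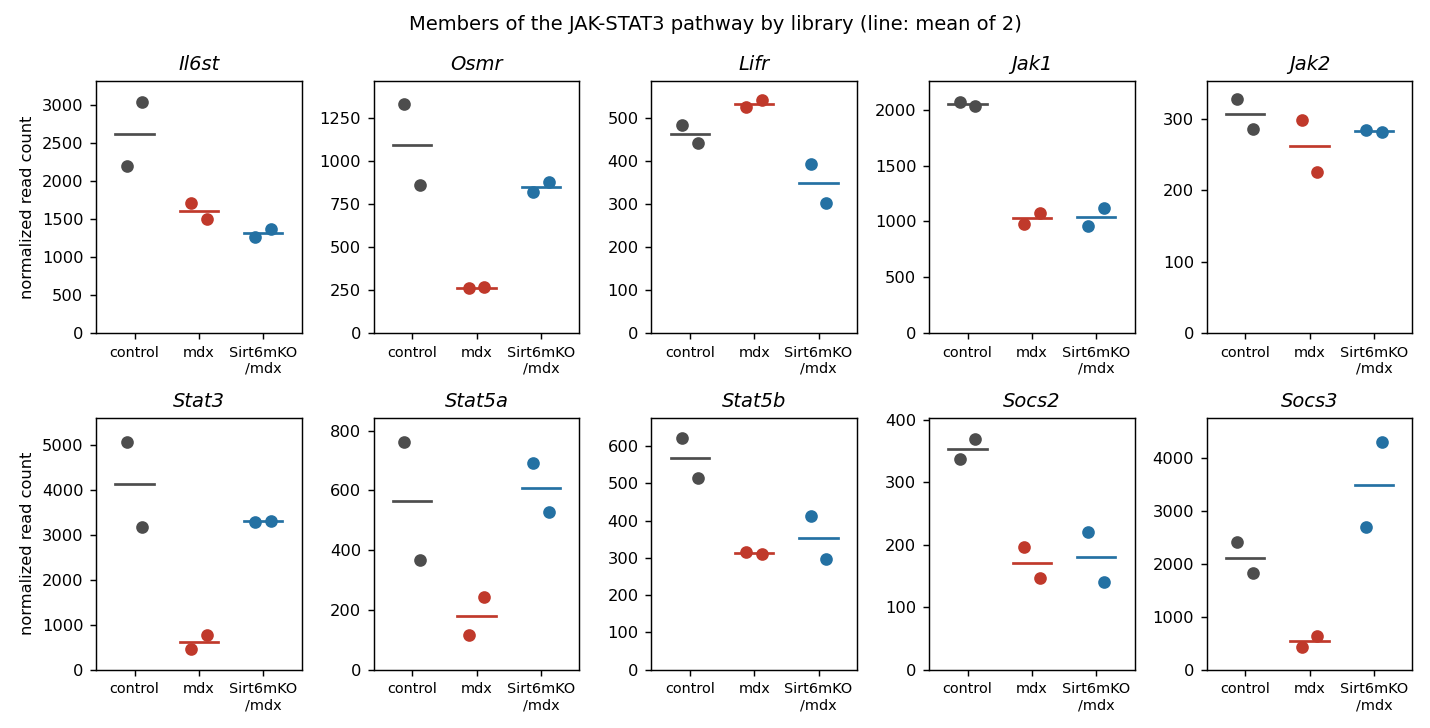
Normalized read count (vertical axis, from 0, scaled for each gene) of the 10 members in the 6 libraries, with 1 point per library and a line at the mean of the 2 libraries of a group. For Osmr, Stat3, Stat5a and Socs3 both mdx libraries sit below the other 4, whereas for Jak1 and Socs2 both mutant groups sit below control.

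Other genes moved with Stat3, Socs3, Osmr and Stat5a. Of 26 immediate early and dissociation response genes, which tissue digestion is known to induce, 25 were called lower in mdx and 25 were called higher in the libraries labelled as Sirt6mKO/mdx than in mdx. The summed value of this list was 186709 to 207116 in control, 25143 to 27824 in mdx and 134890 to 142142 in the libraries labelled as Sirt6mKO/mdx, and 0 of its genes were at 0. Fos and Junb stand on this list and among the STAT3 target genes described with the pathway. Of 10 myofibre genes 4 were called lower in mdx and 3 higher in the libraries labelled as Sirt6mKO/mdx than in mdx, with sums of 21332 to 42374, 12984 to 16341 and 26011 to 35751 and none at 0. Most of the myofibre sum was Ttn, at 13110 and 31747, 10304 and 10891, and 23631 and 19946. The part of both lists in the results for the members was not tested.

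Osmr (ENSMUSG00000022146; GRCm38 chr15:6813577-6874969, minus strand) encodes the receptor chain that binds oncostatin M together with gp130. Its normalized read count was 1331 and 861 in control, against 263 and 267 in mdx cells and 823 and 881 in the libraries labelled as Sirt6mKO/mdx. Both mdx libraries were far below the other 4, and the other groups overlapped. Osmr fell by 2.01 on the log2 scale in mdx (SE 0.26, limma adjusted p 0.000104). It was higher by 1.68 in the libraries labelled as Sirt6mKO/mdx than in mdx (SE 0.26, limma adjusted p 0.000959). Against control the difference was -0.33 with a 95% interval of -0.88 to 0.22.

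Il6st (ENSMUSG00000021756; chr13:112464070-112510086, plus strand) encodes gp130, the chain shared by the whole receptor family. It was at 2198 and 3037 in control, against 1709 and 1500 in mdx cells and 1257 and 1365 in the libraries labelled as Sirt6mKO/mdx. The 3 groups were separate and in descending order, and none of the differences was called. The log2 fold change was -0.69 in mdx against control (SE 0.27, limma adjusted p 0.0900) and -0.29 in the libraries labelled as Sirt6mKO/mdx against mdx (95% interval -0.86 to 0.28). Against control it was -0.98 in the libraries labelled as Sirt6mKO/mdx (SE 0.27, limma adjusted p 0.0325), which passed the p threshold but not the minimum fold change.

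Lifr (ENSMUSG00000054263; chr15:7129559-7197489, plus strand), the receptor chain for leukaemia inhibitory factor, lies close to Osmr on the same chromosome. It was at 485 and 443 in control, against 526 and 542 in mdx cells and 395 and 303 in the libraries labelled as Sirt6mKO/mdx. It was the only member with both mdx libraries above both control libraries. The log2 fold change was 0.20 in mdx (95% interval -0.32 to 0.73), and -0.62 in the libraries labelled as Sirt6mKO/mdx against mdx (95% interval -1.15 to -0.10, limma adjusted p 0.129). With the libraries scaled to equal totals the median log2 fold change of all genes was -0.59 (0.02 and 0.01 without it) in both comparisons of the libraries labelled as Sirt6mKO/mdx. Under that scaling Lifr was called lower in the libraries labelled as Sirt6mKO/mdx than in mdx (-1.25, limma adjusted p 0.00635).

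A ratio of 2 genes within a library does not depend on the scaling. Per kilobase of exon, Osmr over Lifr was 2.44 and 1.73 in control, against 0.445 and 0.438 in mdx cells and 1.85 and 2.59 in the libraries labelled as Sirt6mKO/mdx. Osmr thus had the higher level per kilobase in control and in the libraries labelled as Sirt6mKO/mdx, and Lifr had it in mdx. Osmr over Il6st was 0.555 and 0.260, 0.141 and 0.163, and 0.600 and 0.591. The lowest values were those of mdx in this pair too. These ratios are given without a test.

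Neither kinase gene was called in the 3 comparisons, but Jak1 lay just short of the minimum fold change against control and was called lower there in 2 of 14 alternatives for each mutant group. Jak1 (ENSMUSG00000028530; chr4:101152367-101265282, minus strand), the kinase bound to gp130, was at 2074 and 2035 in control, against 977 and 1079 in mdx cells and 961 and 1117 in the libraries labelled as Sirt6mKO/mdx. Both mutant groups were near 0.500 of control and overlapped each other. The log2 fold change in mdx was -0.99996 (SE 0.24, limma adjusted p 0.0117), which fell just short of the minimum fold change. It was 0.01 between the mutant groups (95% interval -0.51 to 0.53) and -0.99 in the libraries labelled as Sirt6mKO/mdx against control (limma adjusted p 0.0208). Jak2 (ENSMUSG00000024789; chr19:29251828-29313080, plus strand), the kinase of the growth hormone receptor and other cytokine receptors, was at 328 and 286, 299 and 226, and 285 and 281. Control and mdx overlapped, and the log2 fold changes were -0.24 (95% interval -0.79 to 0.32), 0.12 (-0.43 to 0.68) and -0.11 (-0.67 to 0.44) in the order of the comparisons above. Jak1 over Jak2 per kilobase was 4.40 and 4.95 in control, against 2.27 and 3.32 in mdx cells and 2.35 and 2.77 in the libraries labelled as Sirt6mKO/mdx.

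Stat3 (ENSMUSG00000004040; chr11:100885098-100939540, minus strand), the factor at the centre of the pathway, had the largest fall of the 10 members in mdx. Its normalized read count was 5056 and 3183 in control, against 460 and 783 in mdx cells and 3283 and 3317 in the libraries labelled as Sirt6mKO/mdx. These values average 4120 ± 1324, 622 ± 228 and 3300 ± 24.0 (SD, n = 2). The mdx libraries stood apart from the other 4, which overlapped. Stat3 fell by 2.74 on the log2 scale in mdx (SE 0.31, limma adjusted p 3.5e-05), which is 6.67-fold. It was higher by 2.46 in the libraries labelled as Sirt6mKO/mdx than in mdx (SE 0.31, limma adjusted p 0.000201). Against control the log2 fold change was -0.28 (95% interval -0.95 to 0.39), and it was 0.05 without control replicate 1.

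Stat3, Stat5a and Stat5b lie side by side within 158810 bases of chromosome 11 (chr11:100780731-100939540), and the ends of Stat3 and Stat5a overlap by 72 bases on opposite strands. The use of strand in counting was not stated, and this overlap made up 0.756% of the exonic bases of Stat3 and 1.01% of those of Stat5a. Stat5a and Stat5b are close copies: 608 stretches of 50 bases are identical in both, 8.21% of those of Stat5a and 10.99% of those of Stat5b. A read of 50 bases from such a stretch could not be assigned to 1 gene.

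Stat5a (ENSMUSG00000004043; chr11:100859351-100885169, plus strand) was at 763 and 368 in control, against 117 and 243 in mdx cells and 692 and 527 in the libraries labelled as Sirt6mKO/mdx. The mdx libraries were lowest, and the spread between replicates was the widest of the members on the log2 scale. It fell by 1.65 in mdx (SE 0.37, limma adjusted p 0.00702) and was higher by 1.83 in the libraries labelled as Sirt6mKO/mdx than in mdx (SE 0.37, limma adjusted p 0.00657). The call against control was lost without control replicate 1 (-1.12) and without mdx replicate 1 (-1.12), and the call against mdx was lost without mdx replicate 1 (1.31) and without replicate 1 (1.64) or 2 (2.03) of the libraries labelled as Sirt6mKO/mdx. Against control the libraries labelled as Sirt6mKO/mdx differed by 0.19 (95% interval -0.59 to 0.97), a direction that reversed to -0.42 with equal totals per library.

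Stat5b (ENSMUSG00000020919; chr11:100780731-100850724, minus strand), next to Stat5a and the main STAT5 of the growth hormone response, was at 621 and 513 in control, against 316 and 310 in mdx cells and 412 and 296 in the libraries labelled as Sirt6mKO/mdx. Both mutant groups were below control and overlapped each other. The log2 fold change in mdx was -0.85 (SE 0.26, limma adjusted p 0.0351), under the minimum fold change, and that between the mutant groups was 0.16 (95% interval -0.39 to 0.71). Stat3 over Stat5b per kilobase was 4.73 and 3.61 in control, against 0.846 and 1.47 in mdx cells and 4.63 and 6.52 in the libraries labelled as Sirt6mKO/mdx. Stat5a over Stat5b was 0.954 and 0.557, 0.288 and 0.609, and 1.30 and 1.38. Stat5a was the more abundant of the pair per kilobase in the libraries labelled as Sirt6mKO/mdx alone.

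**Figure D2:**
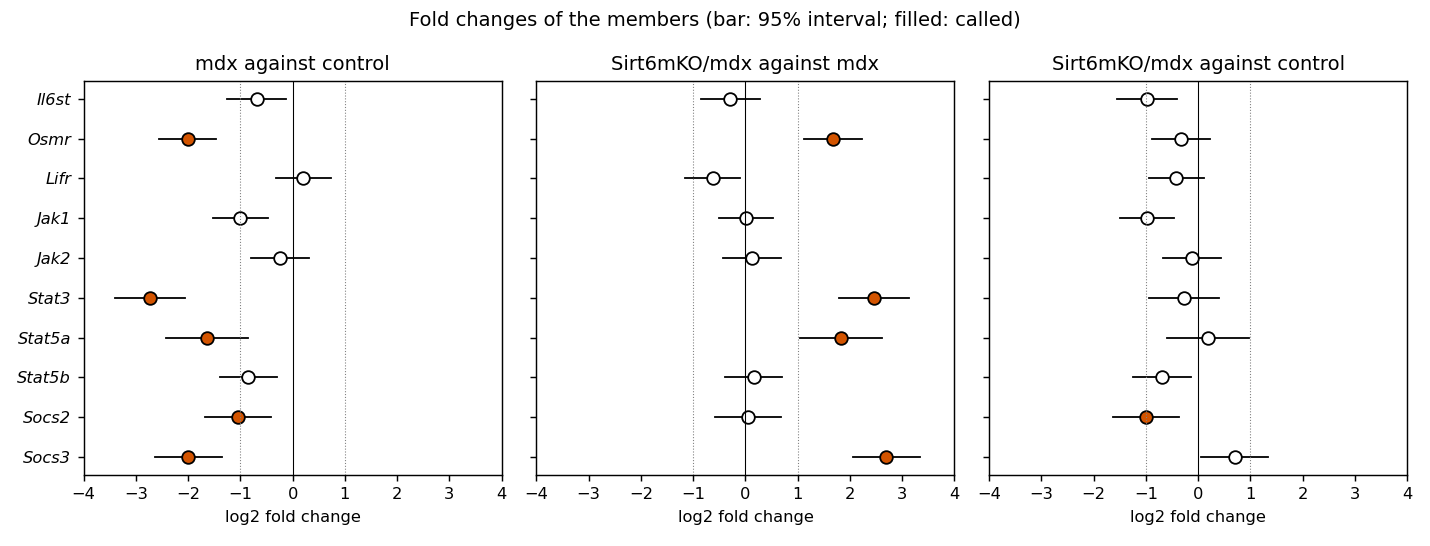
Log2 fold change of each member (horizontal axis) in the 3 comparisons, with the 95% interval as a bar, called genes filled and the minimum fold change dotted. Osmr, Stat3, Stat5a and Socs3 lie on the left in mdx against control, on the right in Sirt6mKO/mdx against mdx, and are open against control.

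Socs3 (ENSMUSG00000053113; chr11:117966079-117970047, minus strand), known as a feedback inhibitor that STAT3 induces, was at 2414 and 1821 in control. In mdx it was at 432 and 636, whereas it reached 2693 and 4302 in the libraries labelled as Sirt6mKO/mdx. The 3 groups did not overlap, and the libraries labelled as Sirt6mKO/mdx were the highest. Socs3 fell by 1.998 on the log2 scale in mdx (SE 0.30, limma adjusted p 0.000399). It was higher by 2.70 in the libraries labelled as Sirt6mKO/mdx than in mdx (SE 0.30, limma adjusted p 6.1e-05), the largest rise among the members. Against control it differed by 0.70 (95% interval 0.06 to 1.34, limma adjusted p 0.170), which was not called.

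Socs2 (ENSMUSG00000020027; chr10:95385362-95417180, minus strand), the inhibitor of growth hormone signalling downstream of STAT5, did not share this course. It was at 338 and 369 in control, against 196 and 147 in mdx cells and 220 and 140 in the libraries labelled as Sirt6mKO/mdx. Both mutant groups were below control and overlapped each other. It fell by 1.05 in mdx (SE 0.30, limma adjusted p 0.0248) and had a log2 fold change of -1.005 in the libraries labelled as Sirt6mKO/mdx against control (SE 0.30, limma adjusted p 0.0470). Both values lie at the minimum fold change, and the calls were lost in 7 and 9 of 14 alternatives, among them the removal of any 1 library of the groups compared (-0.85 to -1.26 in mdx, -0.68 to -1.33 in the libraries labelled as Sirt6mKO/mdx). Between the mutant groups the log2 fold change was 0.05 (95% interval -0.58 to 0.68). Socs2 shares 4.53% of its stretches of 50 bases with other genes, mainly Gm9847. Socs3 over Socs2 per kilobase was 23.5 and 16.3 in control, against 7.27 and 14.3 in mdx cells and 40.4 and 101 in the libraries labelled as Sirt6mKO/mdx.

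**Figure D3:**
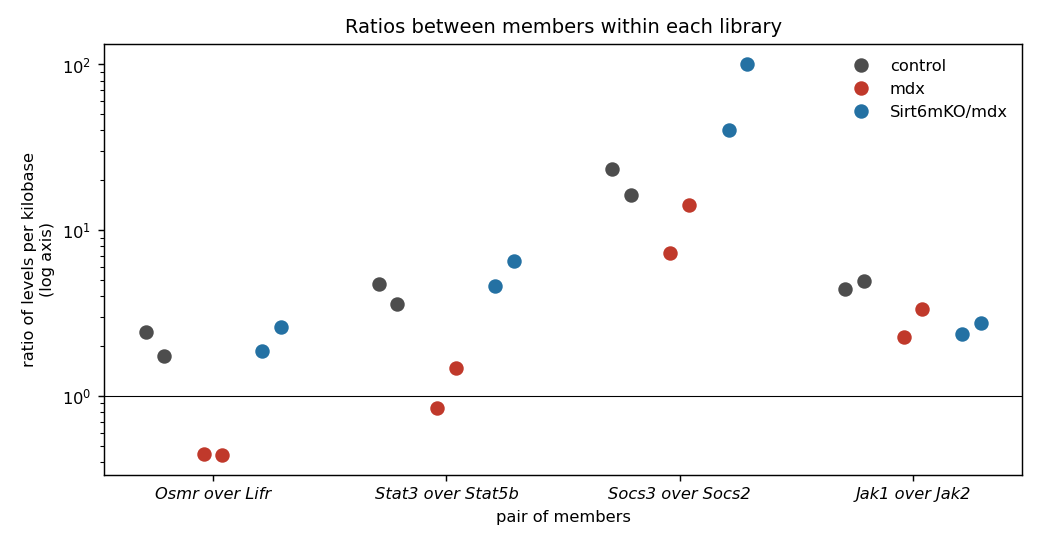
Ratio of the levels per kilobase of exon of 2 members within each library (vertical log axis, 1 point per library, line at 1). Osmr over Lifr is under 1 in both mdx libraries (0.445 and 0.438) and over 1 in the other 4, and Socs3 over Socs2 is highest in the libraries labelled as Sirt6mKO/mdx.

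The order of the members by mean level per kilobase also differed between the groups. In control it was Socs3 (732), Stat3 (432), Jak1 (284), Il6st (236), Stat5b (102), Osmr (90.5), Stat5a (79.3), Jak2 (61.0), Lifr (43.1) and Socs2 (37.1). The libraries of Stat5b, Osmr, Stat5a and Jak2 overlapped from each gene to the next, so their order is not resolved. In mdx the levels were Socs3 185, Il6st 145, Jak1 142, Stat3 65.2, Stat5b 56.5, Jak2 52.2, Lifr 49.6, Stat5a 25.2, Osmr 21.9 and Socs2 18.0. Stat3 thus stood among Stat5b, Jak2 and Lifr there, with overlapping libraries from one to the next, and Osmr overlapped with Stat5a. Socs3, Il6st and Jak1 overlapped as well. In the libraries labelled as Sirt6mKO/mdx the levels were Socs3 1210, Stat3 346, Jak1 144, Il6st 118, Stat5a 85.4, Osmr 70.3, Stat5b 63.9, Jak2 56.3, Lifr 32.4 and Socs2 18.9, and Osmr, Stat5b and Jak2 overlapped from one to the next. Among all tested genes Osmr stood at percentile 84.4 in control, 49.5 in mdx and 79.4 in the libraries labelled as Sirt6mKO/mdx, and Stat3 at 96.3, 78.4 and 95.2. Socs3 stood at percentile 97.5, 93.0 and 97.8, and had the highest mean of the members in each group.

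Of 67 other genes of the pathway, sorted by role, 57 passed the minimum mean and were tested. In mdx against control 3 were called higher and 20 lower, with a median log2 fold change of -0.76. In the libraries labelled as Sirt6mKO/mdx against mdx 15 were called higher and 2 lower, with a median of 0.44, and against control 1 was called higher (Il13ra1) and 6 lower (median -0.12). Target genes of STAT3, which were 18 of the 57 tested, made up 14 of the 20 lower calls in mdx and 12 of the 15 higher calls between the mutant groups. Il4ra counts among these targets and among the receptors. Fos and Junb also stand on the immediate early and dissociation list, of which 25 of 26 genes were called in the same directions. The lists were drawn up with earlier results of these data known, and the background shares are those given above.

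Among 10 ligands of the IL-6 family 5 were tested. Lif and Clcf1 fell in mdx. Lif, the ligand of LIFR, was at 154 and 189 in control, against 12 and 10 in mdx cells and 14 and 17 in the libraries labelled as Sirt6mKO/mdx. It was called lower in both mutant groups (-3.84 and -3.38, limma adjusted p 0.000169 and 0.000926). Clcf1, a ligand of the ciliary neurotrophic factor receptor, was at 539 and 585, 139 and 141, and 675 and 484, the same course as Osmr. Its log2 fold change was -2.00 in mdx and 2.02 in the libraries labelled as Sirt6mKO/mdx against mdx (limma adjusted p 0.000104 and 0.000185).

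Il6 itself was scarce, at 18 and 8 in control, against 4 and 0 in mdx cells and 51 and 130 in the libraries labelled as Sirt6mKO/mdx. These values stand for about 12 and 10, 6 and 0, and 33 and 70 reads. Il6 was called higher in the libraries labelled as Sirt6mKO/mdx than in mdx (5.21, SE 0.90, limma adjusted p 0.00246), and the size depends on the pseudocount, with 6.99 at a pseudocount of 0.1. The call was lost without Sirt6mKO/mdx replicate 2 (4.54, limma adjusted p 0.104). Osm, the ligand of OSMR, was at 5 and 5, 0 and 4, and 6 and 4 and was not tested. The ligands Il11, Cntf, Il27 and Lep were also under the minimum mean.

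Of 20 other cytokine receptors 16 were tested. Il6ra, the IL-6 binding chain, was at 17 and 7 in control, against 9 and 4 in mdx cells and 20 and 20 in the libraries labelled as Sirt6mKO/mdx, and none of its differences was called. Il11ra1, the interleukin-11 binding chain that pairs with gp130, was at 908 and 578, 227 and 171, and 404 and 564. It fell by 1.87 in mdx and was higher by 1.27 in the libraries labelled as Sirt6mKO/mdx than in mdx (limma adjusted p 0.000472 and 0.0133). The latter call was lost without either mdx library (1.48 and 1.07) and without Sirt6mKO/mdx replicate 2 (1.03). Il4ra, the interleukin-4 receptor chain that signals through STAT6, was at 1224 and 1179, 281 and 219, and 520 and 423, and it was called lower in both mutant groups, in the libraries labelled as Sirt6mKO/mdx not without their replicate 2 (-1.21). Il13ra1, Ifngr2 and Ghr were called higher in mdx, and the calls were lost without mdx replicate 1 (3.51, 1.36 and 1.15). Il13ra1, an X-linked gene of the interleukin-13 receptor, was at 5 and 0, 47 and 27, and 50 and 35, and its call against control in the libraries labelled as Sirt6mKO/mdx was lost without either of them (3.88 and 4.38). The call of Ifngr2 was also lost without control replicate 1 (0.94) and without mdx replicate 2 (1.66). The growth hormone receptor Ghr was at 308 and 386 in control and 956 and 766 in mdx (1.31, limma adjusted p 0.00235), the opposite direction to Socs2.

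Among 14 other inhibitors Socs7 and Cish were called lower in mdx, 0 were called by limma between the mutant groups (5 at an unadjusted p under 0.05), and Ptpn11 was called lower in the libraries labelled as Sirt6mKO/mdx than in control. Cish, a STAT5 target, was at 74 and 45, 1 and 11, and 19 and 43 (mdx against control -3.58, limma adjusted p 0.00791, not called without control replicate 1 at -3.23 or mdx replicate 1 at -2.29). Socs7 was not called without control replicate 2 (-0.81) or either mdx library (-1.03 and -1.01), and Ptpn11 was not called without control replicate 2 (-1.04) or Sirt6mKO/mdx replicate 2 (-0.96). Socs1, the inhibitor of interferon signalling, was at 33 and 25, 16 and 13, and 36 and 67, and its 1.70 between the mutant groups had a limma adjusted p of 0.0781.

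Of 18 target genes of STAT3 all were tested. In mdx 14 were called lower and 0 higher by limma (2 higher at an unadjusted p under 0.05), with a median log2 fold change of -2.25, and in the libraries labelled as Sirt6mKO/mdx 12 were called higher than in mdx and 1, Ccnd1, lower (median 1.66). Against control 3 were called lower there (Pim1, Ccnd1 and Il4ra). Leaving out single libraries ended these last calls: Pim1 without control replicate 1 (-1.02) or either library labelled as Sirt6mKO/mdx (-1.26 and -1.57), and Ccnd1 without any 1 library other than control replicate 1 (-0.62 to -1.40). Icam1, an adhesion molecule, was at 134 and 59 in control, against 5 and 2 in mdx cells and 87 and 34 in the libraries labelled as Sirt6mKO/mdx. The call of Icam1 between the mutant groups was lost without mdx replicate 2 (3.21) or Sirt6mKO/mdx replicate 1 (3.04). Pim1, a survival kinase, was at 674 and 391, 37 and 23, and 172 and 214. Its level in the libraries labelled as Sirt6mKO/mdx lay between those of the other groups.

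Cebpb and Cebpd encode transcription factors of the acute phase response. Cebpb was at 292 and 343 in control, against 18 and 27 in mdx cells and 279 and 303 in the libraries labelled as Sirt6mKO/mdx. Cebpd was at 2612 and 1275, 167 and 247, and 2660 and 4109, and its 4.02 between the mutant groups (limma adjusted p 4.4e-06) was the largest rise among the targets. Bcl3, an NF-kB cofactor, was at 325 and 167, 25 and 39, and 340 and 303, and Junb, an AP-1 subunit, at 7612 and 5478, 579 and 795, and 5643 and 6341. These genes shared the course of Stat3 and Socs3, with both mdx libraries lowest. Ccnd1, which encodes cyclin D1, went the other way, at 352 and 851 in control, against 930 and 1217 in mdx cells and 207 and 251 in the libraries labelled as Sirt6mKO/mdx. Its -2.22 between the mutant groups was not called without mdx replicate 2 (-2.02).

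**Figure D4:**
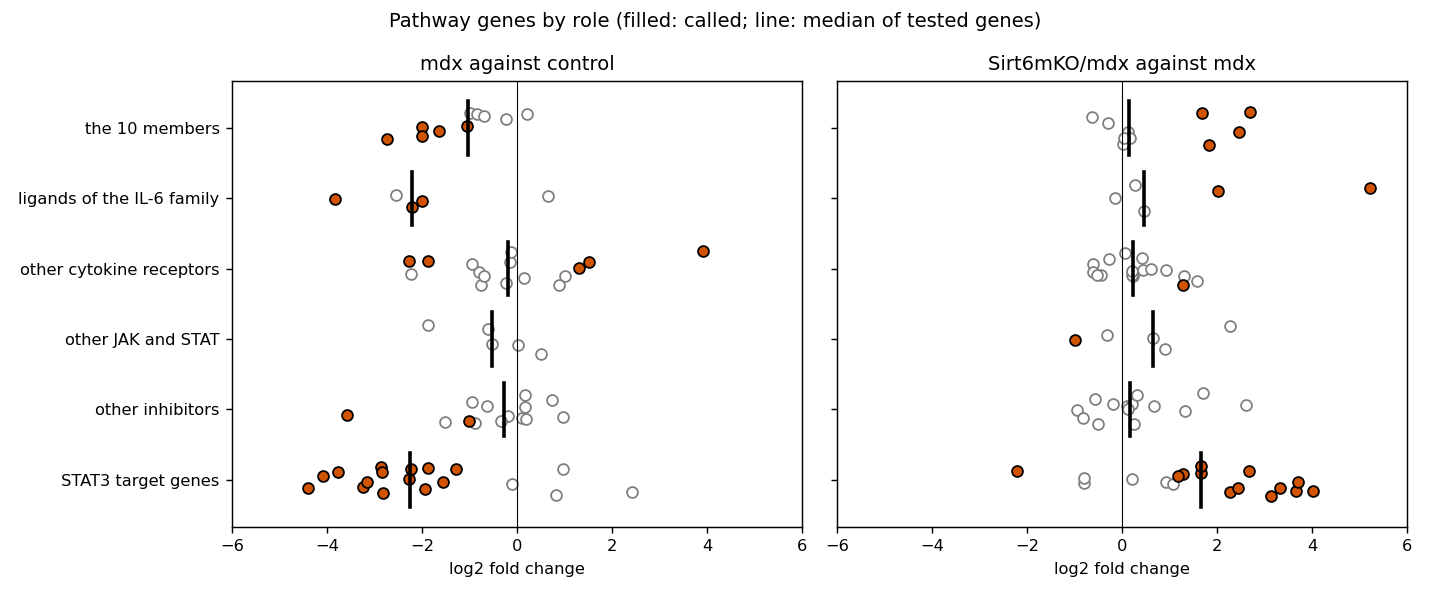
Log2 fold change (horizontal axis) of the 10 members and of the tested genes of 5 other lists by role, in mdx against control (left) and in Sirt6mKO/mdx against mdx (right), with called genes filled and the median of each list as a bar. The medians are -2.25 and 1.66 for the target genes of STAT3, -2.22 and 0.46 for the ligands, -0.53 and 0.65 for the other JAK and STAT genes, -0.27 and 0.16 for the other inhibitors, and -0.19 and 0.22 for the other cytokine receptors.

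The isolation described for MuSCs in the methods of the study first takes out cells with Sca1, CD45 or CD31 on their surface by magnetic beads, a step meant to remove fibro-adipogenic, blood and endothelial cells, and then sorts by integrin alpha-7 and CD34 or by a Pax7 reporter. Which of these sorts the libraries came from is not given in the sources used here. Of the genes of these proteins, Ly6a (Sca1) was at 3 and 9, 79 and 21, and 65 and 15, and Ptprc (CD45) was at 0 and 0, 5 and 3, and 3 and 19, in the order control, mdx and the libraries labelled as Sirt6mKO/mdx. Pecam1 (CD31) is given with the endothelial markers. Of 8 endothelial markers 2 were called lower in mdx and 0 by limma between the mutant groups (3 at an unadjusted p under 0.05), with sums of 816 to 921, 427 to 448 and 629 to 648. Most of this sum was Tek, at 669 and 631, 379 and 348, and 503 and 469. In Tek, Cdh5, Kdr and Pecam1 both mdx libraries were below the other 4, and in the remaining 4 markers they were not. Cdh5 was at 11 and 21 in control, against 2 and 5 in mdx cells and 19 and 30 in the libraries labelled as Sirt6mKO/mdx. In the same order Kdr was at 15 and 13, 2 and 0, and 19 and 9, and Pecam1 at 199 and 86, 20 and 47, and 67 and 114. Flt1 was at 5 and 49, 19 and 19, and 11 and 6, and Egfl7 at 11 and 15, 1 and 26, and 8 and 11. Emcn was at 11 and 1, 4 and 1, and 0 and 0, and Cldn5 at 0 and 0, 0 and 2, and 2 and 9. The 10 macrophage and leukocyte markers summed to 126 to 140, 100 to 117 and 196 to 213, the 10 fibro-adipogenic markers to 29342 to 35851, 35857 to 46205 and 26936 to 34106, and the 7 smooth muscle and pericyte markers to 8123 to 8937, 7209 to 7945 and 4488 to 4648. Most of the fibro-adipogenic sum was Col3a1, at 16458 and 22798, 30817 and 26928, and 15579 and 24533. Pdgfra of the same list was at 15 and 59, 195 and 18, and 142 and 19. Most of the smooth muscle and pericyte sum was Notch3, at 7831 and 6184, 4041 and 5382, and 3049 and 2789. The 6 Schwann markers summed to 56 to 62, 61 to 76 and 23 to 53. By limma Lyz2, Ly6a, Col1a1 and Acta2 were called higher and Cd68 lower in mdx than in control, and Col1a1 was called lower in the libraries labelled as Sirt6mKO/mdx than in mdx. Against control these libraries had Lyz2 called higher and Notch3 lower. Of the Schwann markers 0 were called by limma in the 3 comparisons (0, 1 and 1 at an unadjusted p under 0.05). Of 12 MuSC markers, which summed to 32712 to 35601, 27142 to 33949 and 27779 to 32444, Sdc4 alone was called, lower in mdx than in control by limma and higher in the libraries labelled as Sirt6mKO/mdx than in mdx. The latter difference was 1.37, and it was not called without mdx replicate 2 (1.34) or without either library labelled as Sirt6mKO/mdx (1.39 and 1.36). Against control Sdc4 was called lower in these libraries (-1.31), and this call was also lost without either of them (-1.29 and -1.33). In such bulk samples fewer cells of a type and less RNA per cell cannot be told apart. The part of these markers in the results for the members was not tested.

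The likeness of patterns was described by Pearson's r of log2(value + 1) over the 6 libraries among 9665 genes with a mean of at least 50, with no test, since the libraries fall into 3 groups that many genes share. Among the members, Stat3 was most like Osmr (r = 0.983), followed by Stat5a (0.947) and Socs3 (0.929). Socs3 and Lifr had an r of -0.835. Of all genes compared, those most like Socs3 were 4931440P22Rik, Gm8818, Nr1h2, Phlda1 and Cebpd (r of 0.993 to 0.999). Those most like Osmr were Zfp408, Irf1, Ptp4a1, Rnf26 and Abtb2 (0.997 to 0.9995), and Irf1, an interferon regulatory factor listed among the STAT3 targets, was at 1095 and 725 in control, against 219 and 242 in mdx cells and 696 and 771 in the libraries labelled as Sirt6mKO/mdx. Stat3 was most like Thoc6, Elmod3, Fbxl14, 1810013L24Rik and Sphk1 (0.995 to 0.998). Il6st had other neighbours, namely Clcn4-2, Mbnl2, Poldip3, Nufip2 and Ccnt1 (0.992 to 0.999). An r of at least 0.99 was reached by 7 genes with Socs3, 23 with Osmr, 24 with Stat3 and 6 with Il6st.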

How the data were processed

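RNA of MuSCs was sequenced after removal of ribosomal RNA from total RNA (Ion Total RNA-Seq Kit v2). Per the submitters' processing notes, quality control used FastQC 0.10.1, alignment to mm10/GRCm38 used STAR 2.4.2a, counting used featureCounts 1.4.5-p1 and normalization used DESeq2 1.6.0. Sorting gates for MuSCs are described in the methods of the study, and which gate gave these libraries is not given in the sources used here. The deposited values are whole numbers that behave as reads divided by a size factor per library and rounded by the authors, so they were treated as a score, here called the normalized read count, and no count model was run. Size factors, recovered from skipped and doubled numbers, gave the approximate reads.

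Values were analysed as log2(value + 1) with limma 3.58.1 in R 4.3.3 (trended prior variance, 6 libraries in 1 fit, group as the only term), for the 15915 genes whose mean was at least 5. The p-values were two-sided and Benjamini-Hochberg adjusted over all of them. A fold change on this scale understates the change of low genes. The study describes 2 biological replicates, and with 2 libraries a group the spread is shared between groups. Levels per kilobase used exonic bases of GENCODE mouse release 21 (GRCm38), which held 98.5% of the gene identifiers. The test was checked on simulated data, in which most changes of the smallest simulated fold were missed, so a gene near the minimum fold change that was not called is not shown to be unchanged. All members were named. Of the other listed genes, those named were up to 6 called genes per comparison with a mean of at least 50, no overlap and the largest fold change, and Il6, Lif, Osm, Il6ra, Socs1, Cish and Junb. Genes that this rule also named but that are missing from the text are not reported here. Clcf1, Il11ra1, Ghr, Irf1 and all remaining listed genes in the text were picked with their values in view. The members and lists were chosen with earlier results of these data known.

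Alternatives were a pseudocount of 0.1, no minimum mean or one of 50, equal totals or equal upper quartiles, a single or robust prior variance, a replicate block, and leaving out each library.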

Additional observations from a re-analysis of the deposited data

How the results depend on the processing

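The calls of Stat3 and Osmr in mdx against control held in all 14 alternatives, and that of Socs3 in 13. The calls of Stat3, Socs3 and Osmr in the libraries labelled as Sirt6mKO/mdx against mdx held in 13, and were lost only with a single prior variance, under which limma called 0 genes in that comparison and 3156 had an unadjusted p under 0.05. The number of members called in mdx against control (5) was 3 with no minimum mean 2 with a single prior variance, 6 with a pseudocount of 0.1 (Jak1 added), and 3 to 5 without single libraries. Between the mutant groups (4) it was 0 with a single prior variance, 5 with equal totals and 3 to 4 without single libraries. In the libraries labelled as Sirt6mKO/mdx against control (1, Socs2) it was 0 with a pseudocount of 0.1, with no minimum mean and with a single prior variance, 5 with equal totals, 2 with equal upper quartiles and 0 to 1 without single libraries. With equal totals Jak1, Stat5b, Il6st and Lifr were called there as well. The number of other pathway genes called in mdx against control (23) was 13 with a single prior variance, 24 with equal upper quartiles and 19 to 23 without single libraries. Between the mutant groups (17) it was 10 with no minimum mean, 0 with a single prior variance, 23 with equal totals and 11 to 17 without single libraries, and against control (7) it was 1, 1 and 1 to 7, and 19 with equal totals. The cause was not tested, except that equal totals by construction move all genes of a library together.

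Directions reversed for small differences. Between the mutant groups equal totals gave Jak1 -0.61, Jak2 -0.50, Stat5b -0.47, Socs2 -0.58, Lif -0.12 and Il13ra1 -0.39, and equal upper quartiles gave Jak1 -0.094 and Socs2 -0.059. Against control equal totals gave Stat5a -0.42, Bcl3 -0.14 and Clcf1 -0.58. Without single libraries the log2 fold change between the mutant groups ranged from -0.095 to 0.12 for Jak1, -0.079 to 0.32 for Jak2, -0.080 to 0.40 for Stat5b, -0.28 to 0.37 for Socs2 and -0.16 to 0.61 for Il13ra1. Against control it ranged from -0.62 to 0.052 for Stat3, -0.34 to 0.71 for Stat5a, -0.35 to 0.13 for Junb, -0.018 to 0.94 for Bcl3, -0.21 to 0.27 for Clcf1 and -0.58 to 0.015 for Irf1.

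Over all genes, the called numbers (1097 higher and 1168 lower, 895 and 405, 826 and 427 in the order of the comparisons) became 417 and 572, 154 and 14, and 169 and 52 with no minimum mean, and 181 and 360, 0 and 0, and 65 and 22 with a single prior variance. Equal totals gave 478 and 2937 between the mutant groups and 454 and 2696 against control. The fewest calls in all without single libraries were 273 and 648 (without mdx replicate 1), 199 and 53, and 167 and 45 (both without Sirt6mKO/mdx replicate 2). Between the mutant groups lower calls alone fell to 27, beside 293 higher, without mdx replicate 2. With the replicate block 1168 and 1247, 1050 and 460, and 935 and 469 genes were called, and the members called stayed at 5, 4 and 1. The replicate numbers did not pair the libraries, since deviations from the group means of same-numbered libraries correlated at -0.13, 0.12 and 0.01 across genes. When a group was left with 1 library, that library was assumed to vary like the others. Depth limits Il6, Osm, Il6ra, Lif and Cish, each of which rested on 14 reads or fewer in several libraries. Icam1, at 5 and 2 in mdx, and Il13ra1, at 5 and 0 in control, were also near the floor. Their sizes in mdx against control moved between the settings that kept all libraries. The log2 fold change ranged from 3.90 to 5.64 for Il13ra1, -4.05 to -3.50 for Cish and -4.77 to -4.34 for Icam1.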
